A study of Mus musculus with 5 samples.

Results

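The 8 genes followed here were Neurod1, Insm1, Nkx2-1, Foxa1, Foxa2, Nfib, Prox1 and Sox2, all transcription factors of the neuroendocrine or lung lineage. They were taken by gene name from a deposited table of read counts, which holds 8 rows for them among 54532 genes. RNA had been sequenced from 5 lung tumours of a mouse model of small cell lung cancer (SCLC), flash-frozen after necropsy. Of these, 2 were labelled vehicle and 3 LSN, in a series whose title names inhibition of Aurora A, a kinase of mitosis. LSN itself is not spelled out in the labels. The labels call the samples lung tumours, while the design text speaks of primary cells. Both groups carried the genotype RPP. The sources used here do not state what its letters stand for, the strain or age of the animals, the dose, the time on drug, or whether tumours shared an animal. P-values therefore measure the spread between these tumours.

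SCLC is a cancer of cells that resemble the neuroendocrine cells of the airway. Neurod1 is a basic helix-loop-helix (bHLH) factor that binds E-boxes together with an E protein and drives neuronal and endocrine differentiation, and it marks a subtype of SCLC. Insm1 is a zinc finger factor of neuroendocrine differentiation, Prox1 a homeobox factor of neuronal, endocrine and lymphatic cells, Nfib a nuclear factor I protein that is often amplified in mouse SCLC, and Sox2 a factor of foregut and neural progenitors. Nkx2-1, Foxa1 and Foxa2 specify lung epithelium, and normal alveolar and airway cells also express them.

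The upstream sequences of 3 members are shown, Neurod1 as the member in which the groups did not overlap, and Nkx2-1 and Sox2 as members that had like profiles over the tumours. They come from RefSeq (build GRCm38.p6), are printed 5′ to 3′ on the strand of the gene, and have every E-box (CANNTG, the site class of bHLH factors) in capitals. The Neurod1 stretch is chr2:79456752-79456886 on the minus strand, the Nkx2-1 stretch chr12:56536909-56537158 on the minus strand and the Sox2 stretch chr3:34649745-34649995 on the plus strand.
Neurod1: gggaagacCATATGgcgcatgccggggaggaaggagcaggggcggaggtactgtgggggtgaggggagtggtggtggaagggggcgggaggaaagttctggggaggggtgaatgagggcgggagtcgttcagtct
Nkx2-1: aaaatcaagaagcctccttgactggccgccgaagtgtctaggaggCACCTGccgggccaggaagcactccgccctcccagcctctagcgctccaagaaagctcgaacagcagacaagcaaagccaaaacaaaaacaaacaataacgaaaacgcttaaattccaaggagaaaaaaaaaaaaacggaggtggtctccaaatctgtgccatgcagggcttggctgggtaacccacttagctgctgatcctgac
Sox2: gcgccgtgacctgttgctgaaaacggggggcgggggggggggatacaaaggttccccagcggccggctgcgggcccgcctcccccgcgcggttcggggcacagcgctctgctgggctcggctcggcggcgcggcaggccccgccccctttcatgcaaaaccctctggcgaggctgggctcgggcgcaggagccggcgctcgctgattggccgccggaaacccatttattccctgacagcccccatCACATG

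Of the 8 members, 6 had an entry in that table, and Insm1 and Nfib had none. Motifs were searched on both strands in windows of 300 bases around the RefSeq start site. The Neurod1 window held 1 E-box, CATATG, which begins 242 bases before the start site, a form present in 3.91% of all 32851 windows. Any E-box was present in 72.3% of them. CAGATG, another E-box form, was found among the members in the first Prox1 window alone and in 17.2% of all windows, and CAGCTG was in no member window and in 16.3% of all. The forkhead motif TGTTTAC was found in the Foxa1 window and in 3.65% of all windows. ATTGTT, a Sox motif, was in the Nkx2-1 window and in 10.7% of all, CAAGTG, an NK2 homeobox motif that is itself an E-box, was in the first Prox1 window and in 13.6%, and TTGGC, a motif of nuclear factor I, was in the windows of Nkx2-1, Sox2 and Foxa2 and in 46.7% of all. These matches describe the letters of the windows only.

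The tumours were sequenced to similar depth, with 17439049 to 19766604 counts each, and 3 counts corresponded to between 0.159 and 0.167 CPM (read counts relative to library size, scaled by the TMM method), a floor that covers counting error only. Tumours did not fall together by treatment. Pearson correlations of log2 CPM across 17906 genes ran from 0.835 to 0.934, with vehicle replicate 2 and LSN replicate 1 the closest pair. Neuroendocrine genes were expressed in all 5 tumours, with Syp, the vesicle protein synaptophysin, at 83.8 to 170.1 CPM and Chga, chromogranin A, at 172 to 1473 CPM.

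Neurod1 (chromosome 2, 79452521 to 79456751, minus strand) was the member that differed most between the groups. It had 693 and 199 counts in vehicle replicates 1 and 2, and 14, 8 and 0 counts in LSN replicates 1, 2 and 3. As CPM these were 37.2 and 11.1 with vehicle and 0.772, 0.428 and 0 with LSN. Every LSN tumour lay below both vehicle tumours, and the lowest vehicle value was 14.4 times the highest LSN value. Group means were 24.2 ± 18.5 CPM (SD, n = 2) with vehicle and 0.40 ± 0.387 CPM (SD, n = 3) with LSN.

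The log2 fold change of Neurod1 was -5.90 ± 1.41 (SE; 95% interval -9.44 to -2.35) by edgeR's quasi-likelihood test, with an unadjusted p of 0.0071. After Benjamini-Hochberg adjustment over 17906 genes the edgeR p was 0.9996, and limma-voom gave an adjusted p of 0.989. The edgeR value was the smallest adjusted p of any gene and was the same for all 8 members, so it does not set Neurod1 apart. DESeq2, the tool named in the labels, gave -5.90 with an adjusted p of 0.000652. Without vehicle replicate 1, the tumour with the highest Neurod1 level, the DESeq2 value was -4.78 with an adjusted p of 0.194, and without any other single tumour its adjusted p was between 2.39e-06 and 0.00483. The edgeR test called 0 of the 8 members and 0% of all genes at an adjusted p of 0.05. At an unadjusted p under 0.05 it had 1 of 8 members lower, against 3.21% of all genes, and 0 higher, against 1.06%. DESeq2 had 1 of 8 members lower at an adjusted p under 0.05, against 0.464% of genes with an adjusted p.

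**Figure D1:**
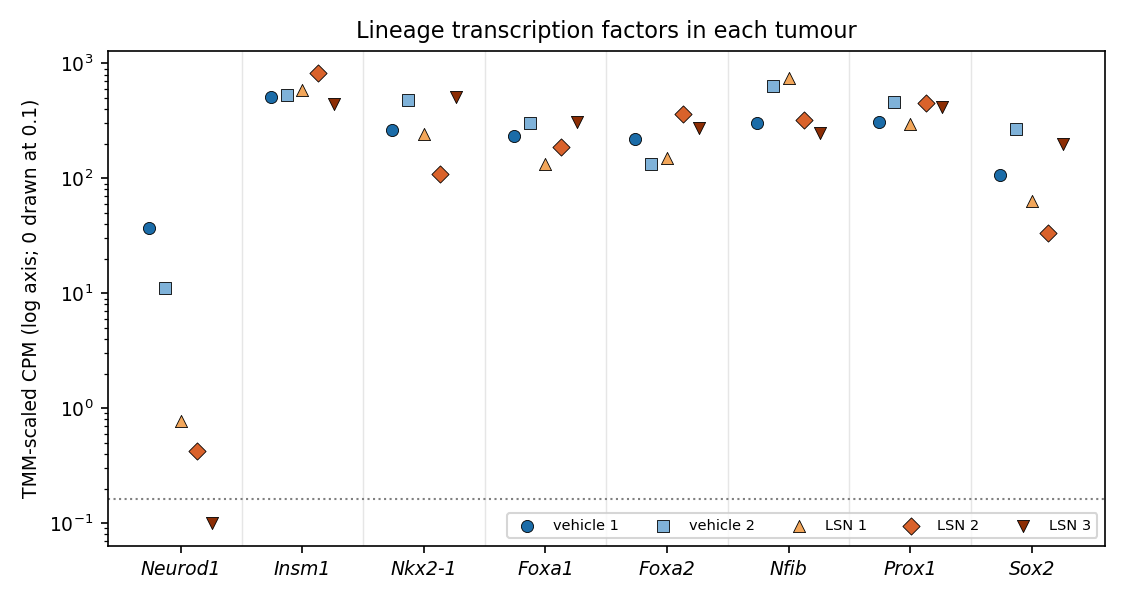
TMM-scaled CPM (log axis) of the 8 lineage factors, with 1 point per tumour; 0 is drawn at 0.1 and the dotted line marks 3 counts. Neurod1 lies at 11.1 CPM or above in both vehicle tumours and at 0.772 CPM or below in the 3 LSN tumours, whereas the groups overlap for the other 7 genes.

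Separation of the groups was seen for Neurod1 alone among the members. All LSN tumours were below both vehicle tumours for 1 of 8 members, a share near the 10.4% of all genes tested. They were above both for 0 of 8, against 8.48%. The median log2 fold change was -0.23 over the 8 members and 0.03 over all genes tested, and 3 members were above 0 and 5 below.

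Reads of the Neurod1 locus can be shared with genes whose exons overlap it on the same strand. As the library kit kept no strand, they can also be shared with an antisense gene. In GENCODE M21, 7.37% of the exonic bases of Neurod1 lie in exons of Cerkl on the same strand and 5.64% in those of the antisense gene Gm26755. Cerkl, a ceramide kinase-like gene, was at 3.22 and 0.947 CPM with vehicle and 0.882, 0.107 and 0.317 CPM with LSN, and Gm26755 was at 0 in all 5 tumours. Like Neurod1, Cerkl was lower in every LSN tumour than in either vehicle tumour, narrowly so between vehicle replicate 2 and LSN replicate 1. Its level was below that of Neurod1 in both vehicle tumours and LSN replicate 2, and above it in LSN replicates 1 and 3. The part of shared reads in these levels was not tested.

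**Figure D2:**
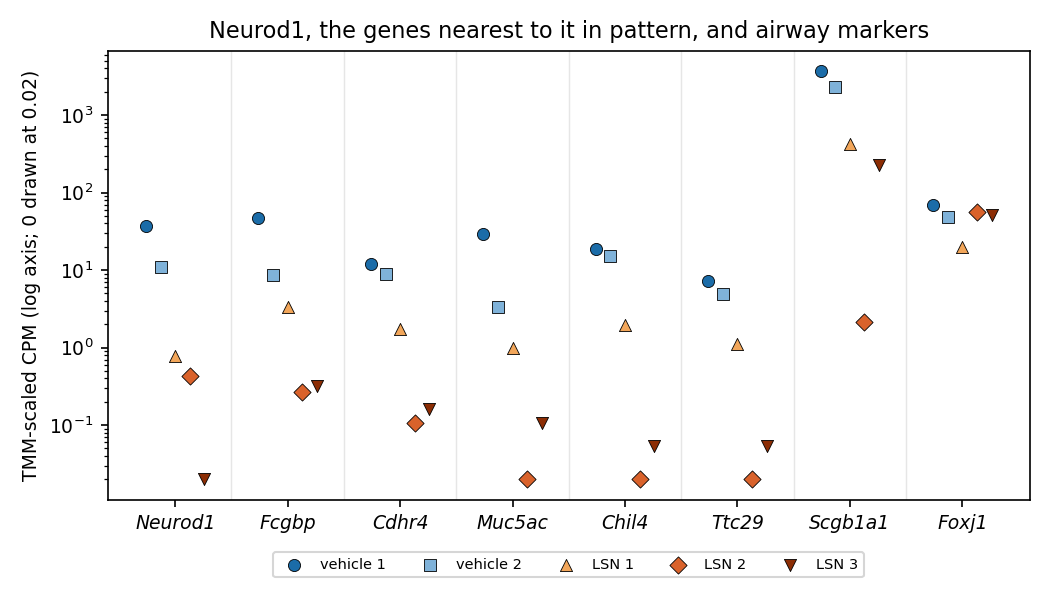
TMM-scaled CPM (log axis) per tumour of Neurod1, the 5 genes with the most similar profile, and the club cell marker Scgb1a1 and ciliated cell marker Foxj1; 0 is drawn at 0.02. Neurod1 and Scgb1a1 are lower in each LSN tumour than in either vehicle tumour, while Foxj1 overlaps at 20.1 to 68.4 CPM. The 5 similar genes were picked by their profile, so their sharing of the Neurod1 split is no separate result.

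The genes most like Neurod1 were sought over 6619 genes by the root mean square (RMS) difference of log2 CPM centred on each gene's own mean, over 5 tumours. The nearest was Fcgbp, which encodes a mucus protein, at an RMS difference of 1.09. It was at 46.8 and 8.70 CPM with vehicle and 3.36, 0.268 and 0.317 CPM with LSN. Next came Cdhr4, a cadherin-related gene, at 1.19 and Muc5ac, a gel-forming airway mucin, at 1.23. Chil4, a chitinase-like protein, followed at 1.27, and Ttc29, a gene of the ciliary and sperm axoneme, at 1.28. In LSN replicates 2 and 3, Cdhr4, Muc5ac, Chil4 and Ttc29 were at or below the floor of 3 counts, so likeness there rests on very few reads. Muc5ac was at 28.9 and 3.34 CPM with vehicle and 0.992, 0 and 0.106 CPM with LSN. All these genes were picked by likeness to Neurod1, so that their sharing of its pattern over the tumours is no separate result.

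Summed markers of normal lung epithelium were, like Neurod1, lower in every LSN tumour than in either vehicle tumour. Within the groups the order differed. The sum was highest in vehicle replicate 2 and lowest in LSN replicate 2, and Neurod1 highest in vehicle replicate 1 and lowest in LSN replicate 3. The summed level of 14 such markers was 6909 and 8898 CPM in the vehicle tumours and 2057, 530 and 1331 CPM in the LSN tumours. All 14 had a log2 fold change below 0, with a median of -2.26, and 10 of 14 were below both vehicle tumours in every LSN tumour, against 10.4% of all genes. The smallest change was that of Abca3, at -0.05, with overlapping groups. Scgb1a1, the secretoglobin of club cells, was at 3682 and 2309 CPM with vehicle and 427, 2.14 and 224 CPM with LSN. Foxj1, the regulator of motile cilia, overlapped between groups, at 68.4 and 48.4 against 20.1, 55.3 and 51.9 CPM. No marker of the list was at 0 in all tumours. The part of normal lung tissue in the Neurod1 difference was not tested. In bulk tumour RNA, fewer cells of a type and less RNA per cell cannot be told apart.

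Insm1 (chromosome 2, 146221921 to 146225020) was the most abundant member per length and varied little. It was at 506.7 and 534.4 CPM with vehicle and 588, 821 and 445 CPM with LSN. LSN replicate 2 was highest and LSN replicate 3 lowest, so that the LSN tumours lay on either side of both vehicle tumours. The log2 fold change was 0.25 ± 0.31 (SE), with a 95% interval of -0.54 to 1.03. In TPM (counts per gene length, scaled to the same total in every tumour), its mean of 629 ranked 4 among the 1469 genes to which the table gives a transcription factor family.

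Prox1 (chromosome 1, 190118035 to 190170714) was the steadiest member, at 310 and 460 CPM with vehicle and 300, 455 and 416 CPM with LSN. Highest and lowest tumour differed by 1.54 times, and the values of both groups covered nearly the same range. Between groups the log2 fold change was 0.02 ± 0.30 (SE; 95% interval -0.73 to 0.76), and it was -0.07 with total counts in place of TMM. Prox1 is also a factor of lymphatic endothelium, and 4 of 5 tested markers of that cell type (Lyve1, Flt4, Pdpn and Mmrn1) were below both vehicle tumours in all LSN tumours, against 10.4% of all genes. The markers summed to 58.2 and 150 CPM with vehicle and 35.8, 32.3 and 21.3 CPM with LSN. Ccl21a, a defining gene of that list, was at 0 in all tumours. The antisense gene Prox1os, which shares 1.59% of the exonic bases of Prox1, had another order of tumours, at 4.78 and 29.4 CPM with vehicle and 7.11, 1.18 and 8.57 CPM with LSN.

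**Figure D3:**
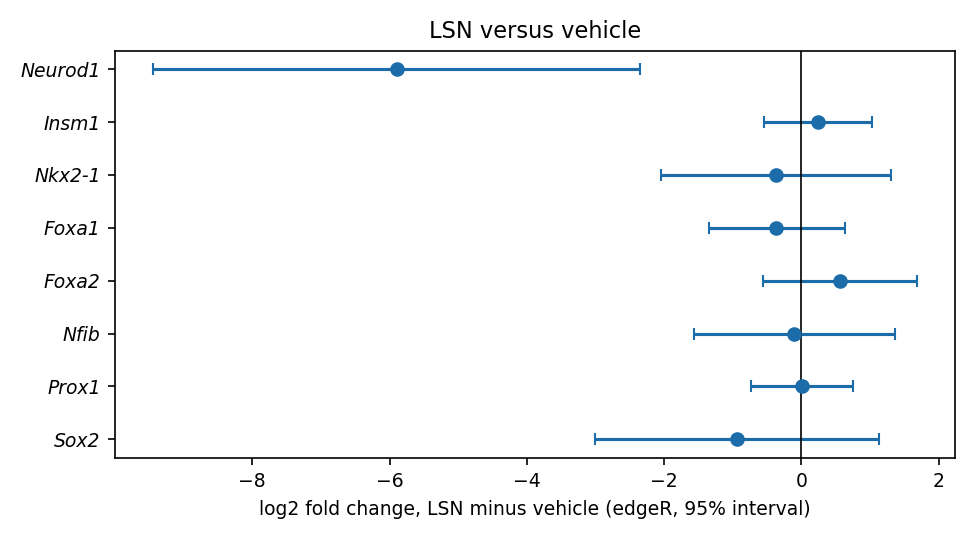
Log2 fold change of LSN over vehicle for the 8 lineage factors, as points with 95% intervals from edgeR on 2 vehicle and 3 LSN tumours. The unadjusted interval of Neurod1 runs from -9.44 to -2.35, and those of the other 7 genes include 0.

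Nkx2-1 (chromosome 12, 56531958 to 56536908), the lung lineage homeobox factor, varied more between tumours of 1 group than between groups. It was at 266 and 478 CPM with vehicle and 242, 109 and 515 CPM with LSN. The lowest and the highest values both belonged to LSN tumours, replicates 2 and 3. LSN over vehicle gave a log2 fold change of -0.37 ± 0.67 (SE; 95% interval -2.04 to 1.31). Napsa, the aspartic protease gene of alveolar type 2 cells and a target of Nkx2-1, was at 28.4 and 96.2 CPM with vehicle and 18.1, 6.05 and 10.5 CPM with LSN, so that in LSN replicate 3 Nkx2-1 was at its highest and Napsa below both vehicle tumours.

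Foxa1 (chromosome 12, 57540628 to 57546916), a forkhead pioneer factor, was at 235 and 304 CPM with vehicle and 133, 187 and 309 CPM with LSN, again with LSN replicate 3 highest. Its log2 fold change was -0.36 ± 0.40 (SE; 95% interval -1.35 to 0.63). Foxa1 and Nkx2-1 lie on the same chromosome, and both genes and the median of chromosome 12 were lower in LSN replicate 2 than in LSN replicate 3. LSN replicate 1 was the lowest tumour for Foxa1, at -0.74 on the centred log2 scale, and was not low for the chromosome. The median of 697 tested genes of chromosome 12, as log2 CPM minus the mean of the 5 tumours, was -0.69 in LSN replicate 2 and 0.59 in LSN replicate 3, and 0.02, 0.12 and 0.02 in vehicle replicates 1 and 2 and LSN replicate 1. For the 51 genes within 5 Mb of Nkx2-1 these medians were -0.84 in LSN replicate 2 and 0.65 in LSN replicate 3.

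**Figure D4:**
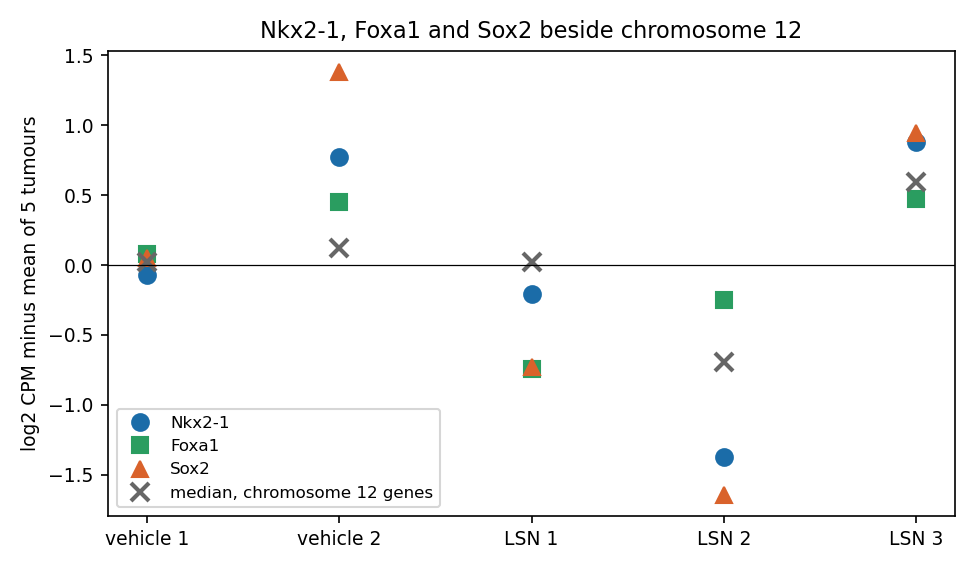
Log2 CPM minus the mean of the 5 tumours for Nkx2-1, Foxa1 and Sox2 and the median of chromosome 12 genes, with 1 mark per tumour. In LSN replicate 2 the marks are at -1.37 for Nkx2-1, -0.25 for Foxa1, -1.64 for Sox2 and -0.69 for the chromosome, and in LSN replicate 3 at 0.88, 0.47, 0.94 and 0.59.

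After the chromosome median was subtracted, Nkx2-1 kept its lowest value in LSN replicate 2, at -0.68, and was highest in vehicle replicate 2, at 0.65. Foxa1 then had its highest value in LSN replicate 2, at 0.44, and its lowest in LSN replicate 1, at -0.76. The order of the tumours for Foxa1 therefore changed with that step. The part of chromosome 12 in either gene's level was not tested.

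Foxa2 (chromosome 2, 148042877 to 148046969), the paralog of Foxa1, had another order. It was at 221 and 133 CPM with vehicle and 150, 360 and 275 CPM with LSN, with LSN replicate 2 highest and vehicle replicate 2 lowest. The log2 fold change was 0.56 ± 0.45 (SE; 95% interval -0.56 to 1.68). The ratio of Foxa2 to Foxa1 in TPM was 1.32 and 0.62 with vehicle and 1.58, 2.70 and 1.25 with LSN, so that vehicle replicate 2 was the 1 tumour with more Foxa1 than Foxa2 per length.

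Sox2 (chromosome 3, 34650405 to 34652461) varied most after Neurod1, with 8.13 times between the highest and the lowest tumour. It was at 108 and 271 CPM with vehicle and 62.9, 33.4 and 201 CPM with LSN. LSN replicate 3 lay between the vehicle tumours, while LSN replicates 1 and 2 lay below both. The log2 fold change was -0.94 ± 0.82 (SE; 95% interval -3.0 to 1.13). Without LSN replicate 3, the LSN tumour between the vehicle tumours, it was -1.97, with an unadjusted p of 0.0271 by edgeR's quasi-likelihood test. In that fit 0 genes passed after adjustment, and DESeq2 without the same tumour gave an adjusted p of 0.326 for Sox2. Without vehicle replicate 2 the log2 fold change was -0.12.

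Sox2ot, the noncoding gene in whose intron Sox2 lies on the same strand, had a different profile, at 3.92 and 50.5 CPM with vehicle and 23.7, 1.55 and 3.07 CPM with LSN. The annotation gave no shared exonic base between the pair. In LSN replicate 3, Sox2 was at 201 CPM and Sox2ot at 3.07 CPM. Among the members, Nkx2-1 was nearest to Sox2 in profile, at an RMS difference of 0.382. By nearness to Nkx2-1, Sox2 ranked 137 of 6619 genes. Nkx2-1 ranked 27 of 6619 genes by nearness to Sox2. Nearer genes included Acap1 at 0.163, Pcdhgb7 at 0.207 and Gata6, a zinc finger factor of lung and gut endoderm, at 0.215, which was at 11.0 and 25.5 CPM with vehicle and 5.57, 4.39 and 23.9 CPM with LSN.

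Nfib (chromosome 4, 82290173 to 82705750) was at 306 and 639 CPM with vehicle and 749, 323 and 247 CPM with LSN. Vehicle replicate 2 and LSN replicate 1 were high and the other 3 tumours low, a split that ran across the groups and paired the same tumours as the correlation over all genes. Between groups the log2 fold change was -0.10 ± 0.59 (SE; 95% interval -1.57 to 1.36). The tested genes within 5 Mb had centred medians of 0.05 in vehicle replicate 2 and -0.02 in LSN replicate 1, where Nfib was at 0.64 and 0.87, and 0.26 in LSN replicate 3, where Nfib was at its lowest, -0.73. The nearest profiles were those of Gng2, a G protein subunit, at an RMS difference of 0.12, Lrp3, a lipoprotein receptor family member, at 0.12 and Cela1, an elastase, at 0.13.

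Per length, the members ranked by mean TPM as Insm1 at 629, Nkx2-1 at 382, Foxa2 at 319, Foxa1 at 235, Sox2 at 222, Prox1 at 155, Nfib at 104 and Neurod1 at 12.6. Neighbours in this order overlapped over the 5 tumours except the last pair, where Neurod1 reached at most 47.5 TPM and Nfib was at least 51.9 TPM. Nfib has the length of 14957 bases in the table, by which its counts were divided. In spread over the tumours, Neurod1 had a larger SD of log2 CPM than 99.5% of genes tested, Sox2 than 84.2%, Nkx2-1 than 73.9%, Nfib than 64.0%, Foxa2 than 56.5%, Foxa1 than 49.3%, Insm1 than 28.4% and Prox1 than 24.1%.

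The other members' nearest genes had closer profiles than those of Neurod1. Insm1 was nearest to Zwint, a kinetochore protein, at an RMS difference of 0.18, Nkx2-1 to Spns2, a sphingosine-1-phosphate transporter, at 0.15, Foxa1 to Map4k1, a kinase of blood cells, at 0.11, Foxa2 to Ccdc96, a coiled-coil gene, at 0.05, and Prox1 to Plau, urokinase, at 0.22. Genes were ranked only if their SD of log2 CPM was at least 0.5. Insm1 and Prox1 themselves had SDs of 0.33 and 0.30, so genes as steady as they were not searched. Prox1 and Insm1 were the closest pair of members, at 0.35, both having little spread. Neurod1 was at least 2.95 from every other member. Smaller spread brings profiles closer by this measure, so these values describe size and shape together.

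Of 12 other neuronal bHLH factors listed, 3 passed the count filter, and none of these 3 separated the groups. Neurod4, a factor of neuronal differentiation, was at 18.4 and 32.1 CPM with vehicle and 5.29, 19.5 and 0 CPM with LSN, with groups that overlapped. Neurog3, which acts before Neurod1 in endocrine differentiation of the pancreas, was at 9.29 and 0 CPM with vehicle and 0.221, 65.5 and 28.1 CPM with LSN. LSN replicates 2 and 3, which had the fewest Neurod1 counts, had the most Neurog3. The log2 fold changes were -1.61 ± 1.77 (SE) for Neurod4, 2.75 ± 2.52 (SE) for Neurog3 and 0.40 ± 1.25 (SE) for Bhlhe22, a neuronal repressor. The edgeR test called 0 of these 3, with 0 at an unadjusted p under 0.05.

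**Figure D5:**
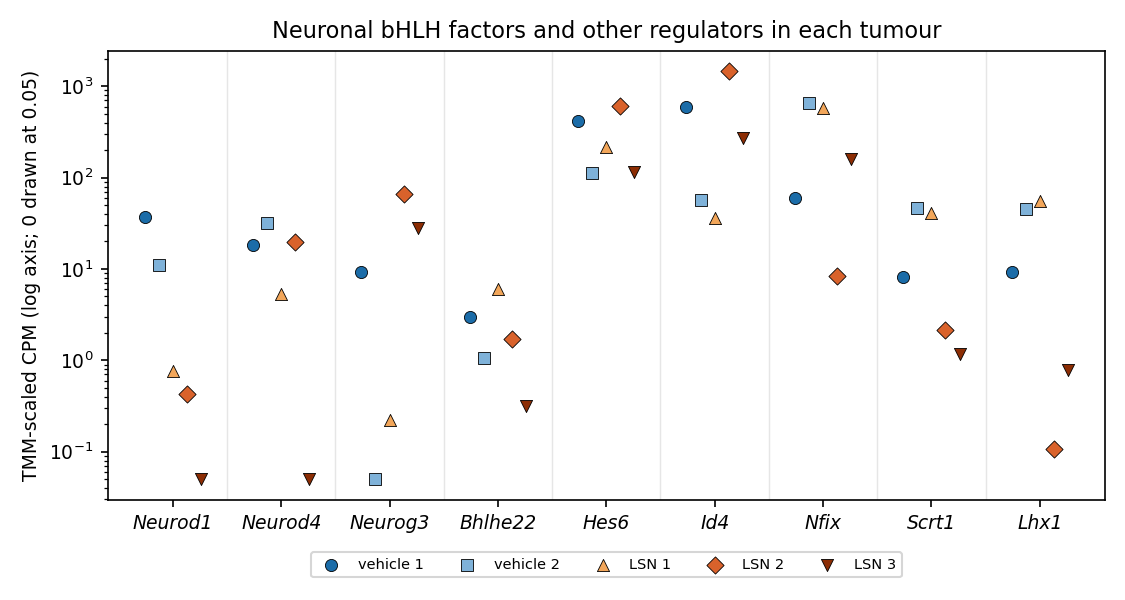
TMM-scaled CPM (log axis) per tumour of Neurod1, other neuronal bHLH factors, the bHLH regulators Hes6 and Id4, and Nfix, Scrt1 and Lhx1; 0 is drawn at 0.05. Hes6 and Id4 are highest in LSN replicate 2, at 611 and 1465 CPM, and Nfix, Scrt1 and Lhx1 are high in vehicle replicate 2 and LSN replicate 1.

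The bHLH partners and antagonists were measured for all 12 genes, with 7 above 0, a median of 0.14 and 2 of 12 below both vehicle tumours in every LSN tumour, where all genes had 10.4%. These were Rest, the repressor of neuronal genes, and Hes1, a Notch target that represses neuroendocrine fate. Rest was at 5.91 and 11.5 CPM with vehicle and 5.84, 3.21 and 4.60 CPM with LSN. Hes1 was at 30.4 and 21.6 against 8.38, 20.7 and 20.1 CPM. Both separated the groups narrowly, Rest between vehicle replicate 1 and LSN replicate 1 and Hes1 between vehicle replicate 2 and LSN replicate 2. Hey1, another Notch target, had a log2 fold change of -0.61 and Id2, an inhibitor of E proteins, one of 0.70, both with overlapping groups. The edgeR test called 0 of the 12, with 0 at an unadjusted p under 0.05. Tcf3, Tcf4 and Tcf12, the E proteins with which Neurod1 pairs, had log2 fold changes of 0.07, -0.67 and 0.21, and Hes6, a bHLH factor of neuroendocrine cells, was at 421 and 113 CPM with vehicle and 218, 611 and 116 CPM with LSN. Id4, an inhibitor of bHLH factors, ranged from 36.4 CPM in LSN replicate 1 to 1465 CPM in LSN replicate 2. The E proteins, Hes6 and Id4 were chosen after their values were seen.

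Of 15 other zinc finger and homeobox factors, 13 were tested, with 7 above 0 and a median of 0.03. Pax6, a homeobox factor of eye, brain and endocrine pancreas, was below both vehicle tumours in every LSN tumour, at 4.62 and 18.0 against 2.32, 3.59 and 1.32 CPM, with an unadjusted p of 0.0334 by edgeR's quasi-likelihood test. It was the 1 gene of the 13 with an unadjusted p under 0.05, where all genes had 3.21% lower and 1.06% higher. Pax6 was also the 1 of 13 below both vehicle tumours in every LSN tumour, where all genes had 10.4%. After adjustment 0 passed. St18, a zinc finger factor of endocrine cells, had a log2 fold change of 0.98, Mnx1, a homeobox factor of motor neurons and beta cells, one of -3.56, and Myt1, a zinc finger factor related to St18, one of 0.19, all with overlapping groups. Scrt1, a neuronal repressor, and Lhx1, a LIM homeobox factor, both chosen after their values were seen, had their 2 highest values in vehicle replicate 2 and LSN replicate 1, at 46.8 and 40.7 CPM and at 45.8 and 56.0 CPM, the tumours that were also high for Nfib.

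Paralogs of the members were tested for 9 of 11, with 4 above 0, a median of -0.20 and 2 of 9 below both vehicle tumours in every LSN tumour, where all genes had 10.4%. Nfia, a nuclear factor I paralog of Nfib, was at 35.1 and 29.3 against 16.3, 8.73 and 22.9 CPM, and Sox9, a factor of lung progenitors and cartilage, at 1.88 and 2.79 against 1.10, 0.428 and 0.423 CPM. Sox9 had an unadjusted p of 0.0468 and Nfia one of 0.0779 by edgeR's quasi-likelihood test, and 0 of 9 passed after adjustment. Sox1, the neural paralog of Sox2, was at 235 and 360 CPM with vehicle and 370, 572 and 264 CPM with LSN, with its highest value in LSN replicate 2, where Sox2 was lowest. Nkx2-4, a paralog of Nkx2-1, was at 4.46 CPM in vehicle replicate 2 and at most 1.27 CPM elsewhere. Nfix, also chosen after its values were seen, was at 59.7 and 664 CPM with vehicle and 577, 8.35 and 161 CPM with LSN.

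Neuroendocrine effector genes had fold changes in both directions. All 24 listed were tested, 17 had a log2 fold change above 0 and the median was 0.50. In every LSN tumour 3 were above both vehicle tumours (Syp, Cplx2 and Ddc) and 2 below (Nnat and Uchl1), shares of the 24 near those of all genes, 8.48% above and 10.4% below. Syp, Cplx2, a regulator of vesicle fusion, and Ddc, which makes serotonin and dopamine from their precursors, had log2 fold changes of 0.61, 0.71 and 0.87. Nnat and Uchl1, a neuronal proteolipid and a neuronal deubiquitinase, had -0.47 and -0.40. The edgeR test called 0 of 24, with 0 at an unadjusted p under 0.05.

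Markers of other cells that could hold member transcripts varied as well. Fibroblast and smooth muscle markers, of which 9 of 10 were below 0, had sums of 755 and 1530 CPM with vehicle and 840, 762 and 440 CPM with LSN. Blood endothelial markers were below 0 for 7 of 8, and the same 7 were below both vehicle tumours in every LSN tumour, against 10.4% of all genes. The exception was Vwf, von Willebrand factor, at 438 and 49.4 CPM with vehicle and 52.3, 539.5 and 424 CPM with LSN. It made up most of the list sums in vehicle replicate 1 and LSN replicates 2 and 3, which were 642 and 454 CPM with vehicle and 149.8, 643.5 and 496 CPM with LSN. Cldn5, a tight junction protein, was at 27.3 and 31.0 against 6.62, 3.43 and 2.91 CPM. Of 8 tuft cell markers, 4 were tested, with list sums of 34 and 25.5 CPM with vehicle and 89.9, 34.7 and 60.5 CPM with LSN. Plcg2, a phospholipase also found in immune cells, was above both vehicle tumours in every LSN tumour, and Pou2f3, the factor that defines the tuft lineage, was at most 0.376 CPM. Basal cell markers summed to 8.86 and 2.12 CPM with vehicle and 14.4, 1.55 and 2.54 CPM with LSN, and immune markers to 65.6 and 204 against 186, 86.9 and 152 CPM. The part of these cells in the levels of the lineage factors was not tested.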

How the data were processed

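The authors deposited read counts per gene, not normalized, for 5 tumours, and per the labels' protocols mapped reads from an unstranded library to mm10 with STAR and used DESeq2. The counting program is not given in the sources used here. Gene lengths are those of the deposited table. Total counts ran from 17439049 to 19766604.

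Group differences were tested in edgeR 4.0.16 by quasi-likelihood (R 4.3.3; TMM, robust fit, filterByExpr with a minimum count of 10 and total of 15), which kept 17906 genes, with Benjamini-Hochberg adjustment at 0.05 over all of them. SE is the unshrunken log2 fold change divided by the square root of F. DESeq2 1.42.0 and limma 3.58.1 (voom), other scalings and filters, and leaving out each tumour were alternatives. Log2 CPM had a prior count of 2. An exact permutation of 2 against 3 tumours cannot give a p below 0.1. The fit was tested on simulated counts with known changes, at an adjusted p under 0.05. With the median dispersion (spread beyond counting error) of these data, 0.312, it recovered 0% of log2 changes of 1. It recovered 1.5% of log2 changes of 2 and 67.2% of log2 changes of 4. With a dispersion of 0.02 these shares were 71.4%, 100% and 100%. A count of 0 genes called therefore does not show that levels were equal. TPM was computed from the counts and gene lengths.

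Named genes were the members, up to 4 genes per regulator list with the smallest p and a mean of at least 1 CPM, genes overlapping a member, and those nearest in profile (mean of at least 1 CPM, SD of log2 CPM of at least 0.5, predicted genes left out). Cell type and effector markers named as examples of their lists were chosen after their values were seen. The members and lists were chosen with earlier results of these data known.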

Additional observations from a re-analysis of the deposited data

How the results depend on the processing

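Under RLE scaling, total counts, either other setting of the filter (none, or 1 CPM in at least 2 tumours), a fit that was not robust, limma-voom and each edgeR fit without 1 tumour, 0 genes passed the adjusted threshold, as with edgeR on all tumours, with 407 to 1181 genes at an unadjusted p under 0.05. DESeq2 called 100, with 1218 at an unadjusted p under 0.05. Neurod1 was below 0 in every alternative run. DESeq2 called it at -5.90, and without 1 tumour at a time its value ran from -6.80 (LSN replicate 1, DESeq2) to -4.76 (vehicle replicate 1, edgeR). The DESeq2 fits without a tumour were chosen after seeing the data, and of these 5 the fit without vehicle replicate 1 did not call it (adjusted p = 0.194). A prior count of 2 gave -5.58.

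Values that crossed 0 when 1 tumour was left out, over edgeR and DESeq2, ran from -0.01 to 0.46 for Insm1, -1.08 to 0.13 for Nkx2-1, -0.74 to 0.54 for Nfib and -0.23 to 0.35 for Prox1. Prox1 was also at -0.07 with total counts. The cause was not tested. Foxa1 and Sox2 stayed below 0 and Foxa2 above 0 in all alternatives run, none called. Depth limited Neurod1 in LSN replicate 3, where 0 counts allow up to 0.159 CPM. No paired analysis was possible because replicate numbers follow the order of deposit and link no tumours.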
